A study of Mus musculus with 56 samples.

Results

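CD73 and FR4 are cell surface proteins that were used to describe fetus- and graft-specific CD8 T cells after pregnancy in this study, and their genes are described here together with 5 genes of extracellular adenosine and NAD metabolism. The 7 genes are Nt5e (CD73), Izumo1r (FR4), Entpd1 (CD39), Adora2a (the A2A adenosine receptor), Ada (adenosine deaminase), Dpp4 (CD26) and Cd38. They were chosen by symbol, matched to Ensembl identifiers, and are 7 of the 55359 genes in the table of raw RNA-Seq counts. CD8 T cells that bind OVA:Kb tetramer (TFGS) were sorted from spleen and lymph nodes of female C57BL/6 mice, which were bought at 8 to 12 weeks of age, 200 cells to a library, and each library was amplified with SmartSeq2.

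The groups differed in grafting, pregnancy and sort gate. Naive mice (3 samples) had neither graft nor pregnancy, and Sensitized mice (4 samples) had received a skin graft from 2W-OVA.BALB/c donors. The labels give no PD1 or CD73 gate for either group. N+P mice were naive before a semi-allogeneic pregnancy by 2W-OVA.BALB/c males, and their TFGS were sorted as N+P C1 (PD1-, 3 samples) and N+P C5 (PD1+CD73+, 3 samples). S+P mice had been grafted before the same kind of pregnancy, and gave S+P C4 (PD1-, 6 samples), S+P C5 (PD1+CD73+, 6 samples) and S+P C7 (PD1+CD73-, 5 samples). Subsets with the same replicate number were taken to come from the same mother. The 5 S+P C7 samples carry the labels of 6 mothers, because nearly identical libraries labelled as mothers 1 and 2 were averaged into 1 sample. These may be the same library, so that sample may not stand for both mothers. In pairs it was set against the average of S+P C5 samples 1 and 2. By the methods for flow cytometry, Sensitized mice were taken at least 30 days after grafting and mothers within 3 days of delivery. Tetramer binding selects cells specific for a single peptide of the OVA transgene, so other alloreactive T cells were not in these samples.

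Extracellular ATP is broken down to AMP by CD39, and CD73 turns AMP into adenosine. On T cells adenosine acts mainly through the A2A receptor, which raises cAMP and dampens activation, while adenosine deaminase removes adenosine by converting it to inosine. CD38 consumes NAD and can feed the same route to AMP, and CD26 is a surface dipeptidyl peptidase. FR4 belongs to the folate receptor family, is abundant on regulatory CD4 T cells, and together with CD73 marks anergic CD4 T cells.

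The promoters of Nt5e and Izumo1r are shown because these were the members whose samples in N+P C5 all stood above every sample of both Naive and N+P C1. C5 was gated on CD73, the protein of Nt5e, so for Nt5e this choice is tied to the sort. RefSeq sequences (GRCm38.p6) of 250 bases before to 50 bases after the start of transcription were at hand for 6 of the 7 genes. Each is printed 5′ to 3′ on the strand of its gene, with Nt5e at chr9:88327359-88327658 (plus strand) and Izumo1r at chr9:14903718-14904017 (minus strand). Capitals mark matches to the GC box (GGGCGG, read on either strand, overlapping matches included).
Nt5e: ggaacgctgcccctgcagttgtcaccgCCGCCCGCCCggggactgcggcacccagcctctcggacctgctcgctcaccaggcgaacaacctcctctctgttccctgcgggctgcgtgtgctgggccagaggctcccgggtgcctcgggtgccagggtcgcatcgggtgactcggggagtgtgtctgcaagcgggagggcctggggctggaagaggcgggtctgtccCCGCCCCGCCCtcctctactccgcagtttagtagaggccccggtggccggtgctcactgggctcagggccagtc
Izumo1r: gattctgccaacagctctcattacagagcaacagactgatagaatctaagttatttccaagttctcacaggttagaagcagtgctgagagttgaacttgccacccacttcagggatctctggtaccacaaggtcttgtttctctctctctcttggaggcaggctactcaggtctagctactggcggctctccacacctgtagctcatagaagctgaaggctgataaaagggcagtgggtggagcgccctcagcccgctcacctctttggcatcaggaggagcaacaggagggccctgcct
The Nt5e window held 23 CpG and 71.0% G and C, against medians of 7 CpG and 52.7% over 32851 promoters, and the Izumo1r window held 3 CpG and 52.3%. Nt5e had 4 matches to the GC box, at -223, -219, -24 and -19 from the start, all on the opposite strand, and 35.7% of all promoters hold at least 1. No match to TGACG (part of the cAMP response element, in 20.8% of promoters), ACGTG (the core of the hypoxia response element, 19.6%) or TGANTCA (an AP-1 site, 7.81%) was found in either window, and Izumo1r had no GC box. These are matches of letters only.

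Libraries held 6636532 to 32625243 counts (median 17299849). Levels are given as CPM, counts scaled to the library size after TMM normalization, and a count of 3 or less in a sample is called the floor (0.112 CPM on average in Naive samples). Reads amplified by PCR and carrying no molecular identifiers are not single molecules, and the floor covers counting error only. In bulk samples, fewer cells of a type and less RNA per cell cannot be told apart. All 30 samples carried Cd8a (567 to 1580 CPM) and Cd8b1 (678 to 2921 CPM), which encode the CD8 chains, while Cd4 was at the floor in 27 of 30 samples and Foxp3, the regulatory T cell factor, in 25 of 30.

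Some samples stood apart. In S+P C4 samples 2 and 3 and S+P C7 sample 3, only 8002, 7436 and 7879 genes were detected, each under 9000. At the other end, 26805 and 21247 genes were detected in S+P C7 samples 4 and 6. Library B of S+P C7 sample 4 held 25514, where the median library held 13587. S+P C7 sample 3 went against its PD1+ gate with 1 count of Pdcd1 (PD1), where the group mean was 289 ± 233 CPM (SD, n = 5), and it also held 10046 CPM of Hba-a1 (hemoglobin), 5931 CPM of Cd74, 8233 CPM of Ighm and 6167 CPM of Cst3, which mark red cells, B cells and myeloid cells. Red cell genes summed to 20082 CPM in it and to at most 419 CPM in any other sample. B cell genes, mostly Ighm, summed to 14164 CPM in it, to 673 to 1386 CPM in Naive, to 219 to 373 CPM in Sensitized and to 159 to 300.2 CPM in S+P C5, and their part in the levels below was not tested. One library carried the same counts in Naive replicate 1 and S+P C4 replicate 1 and was left out of both. The main results that hold samples with few genes are given with and without them.

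**Figure D1:**
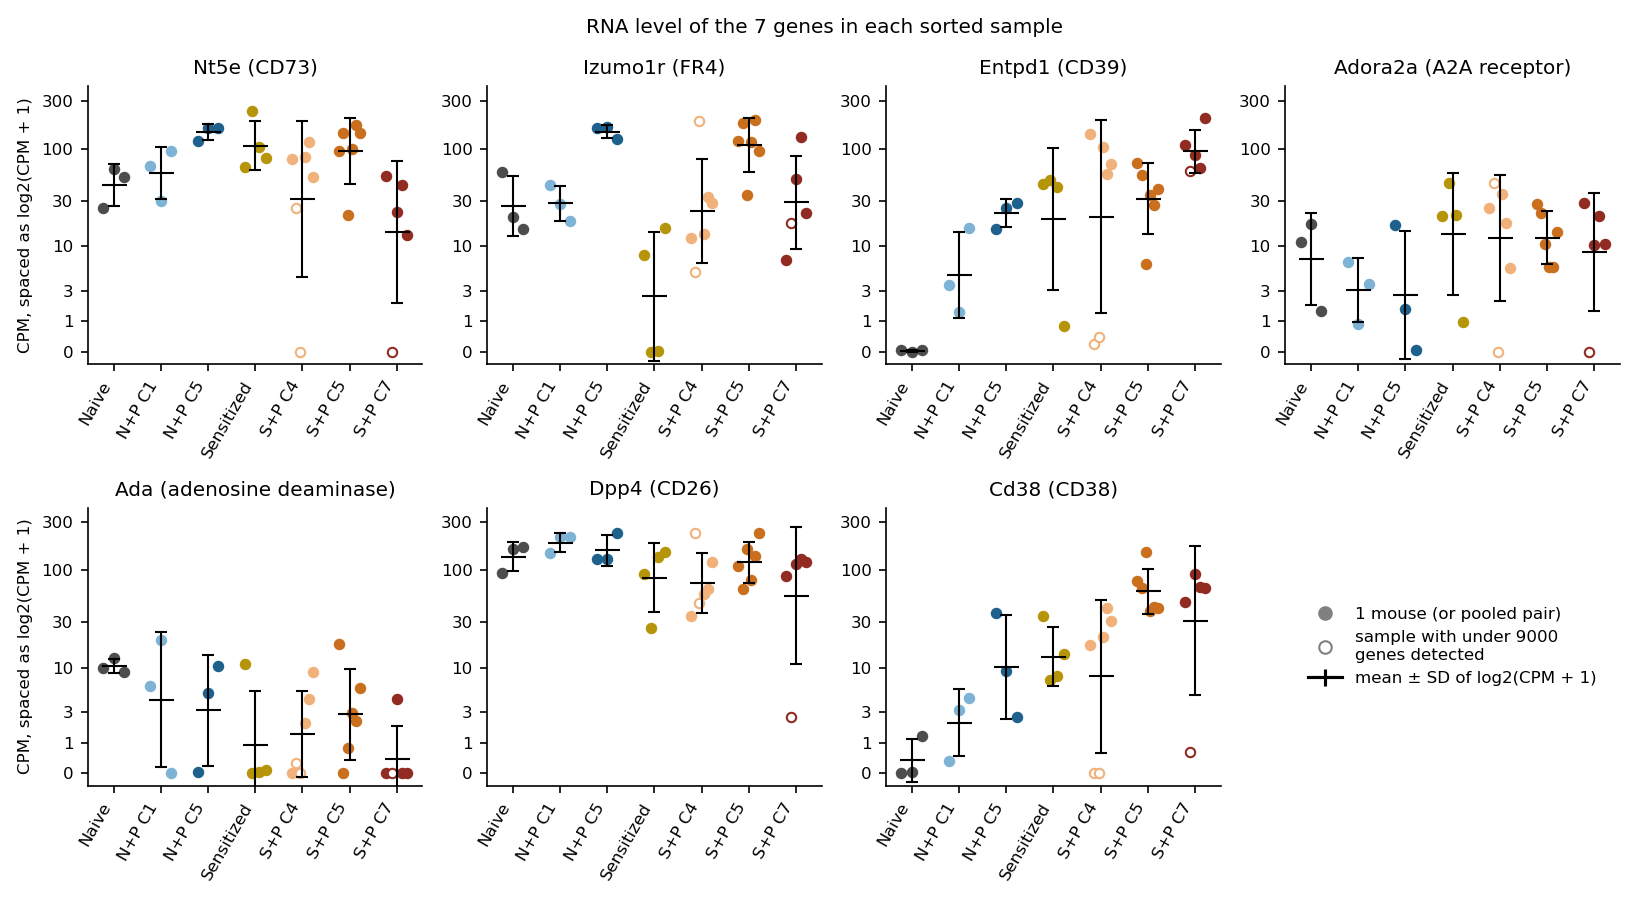
RNA level of the 7 genes in each sample, in CPM on an axis spaced as log2(CPM + 1), with the 7 sorted groups along the x axis. Filled points are samples, open points the 3 samples with under 9000 genes detected, and bars the mean ± SD of log2(CPM + 1). Nt5e and Izumo1r are highest on average in N+P C5, Entpd1 lies at the floor in all 3 Naive samples and is highest on average in S+P C7, and Dpp4 is above the floor in every sample.

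Nt5e (chr9:88209089-88254146 on GRCm39, plus strand) encodes CD73, which makes adenosine from AMP and defined the C5 and C7 gates. The Naive samples held 25.0, 63.2 and 51.7 CPM of it and the N+P C5 samples 119, 161 and 162 CPM. Every N+P C5 sample was above every Naive sample, as in 4 of the 7 members and 7.4% of all genes tested. C5 cells were selected for CD73 protein, and the labels give no CD73 gate for Naive, Sensitized, N+P C1 or S+P C4. Where Nt5e in C5 is set against these groups, the CD73 gate cannot be told apart from their other differences. The log2 fold change was 1.66 ± 1.28 (SE), with an adjusted p of 1 (edgeR quasi-likelihood test, Benjamini-Hochberg adjustment over 19657 genes). N+P C1, the PD1- cells of the same mothers, had 66.6, 29.7 and 94.2 CPM, all below N+P C5. In each of the 3 mothers Nt5e was higher in C5, by 1.22 ± 1.27 on the log2 scale (adjusted p = 1).

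In Sensitized samples Nt5e reached 66.4, 236, 104 and 81.7 CPM, each above all Naive samples (log2 fold change 1.39 ± 1.22, adjusted p = 1.00, edgeR). Their mean of 122 ± 77.3 CPM (SD, n = 4) lay between that of N+P C5 (147 ± 24.5, n = 3) and that of S+P C5 (112 ± 53.0, n = 6). In S+P C5 the lowest sample had 21.6, the median was 121 and the highest sample had 170.2 CPM, which overlapped the Sensitized range. The log2 fold change of S+P C5 against Sensitized was -0.12 ± 0.99 (adjusted p = 1). The order of group means was N+P C5, Sensitized, S+P C5, N+P C1, S+P C4, Naive and S+P C7, and no neighbours in it differed by more than their spread. When the few-gene samples were left out, S+P C4 (82.8 CPM) ranked above N+P C1 (63.5 CPM), and again no neighbours differed beyond their spread.

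The CD73 gate separates S+P C5 from S+P C7, so the level of Nt5e RNA in them bears on the sort itself. S+P C7 samples had 53.9 (mothers 1 and 2), 0 (3), 23.2 (4), 43.3 (5) and 13.4 (6) CPM. Of the 6 S+P C5 samples 5 were above every S+P C7 sample, but only 2 of the 5 S+P C7 samples were below every S+P C5 sample, because S+P C5 sample 3 was at 21.6 CPM. The mean of log2(CPM + 1) was 3.94 in S+P C7 and 6.58 in S+P C5, a difference of -2.64 (two-sided exact permutation test, p = 0.0195; the smallest p that 462 arrangements allow is 0.00216).

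Within mothers, Nt5e was lower in S+P C7 in 5 of 5 pairs, with a mean difference of -2.59, and an exact sign-flip permutation gave p = 0.0625, which is the smallest that 5 pairs allow. S+P C7 sample 3, the sample with red cell and B cell RNA, was the one at 0. Without it the difference of the groups was -1.66 (exact permutation p = 0.0476), and Nt5e was lower in 4 of the 4 mothers left, with a mean difference within mothers of -2.11 (exact sign flips, p = 0.125, the smallest that 4 pairs allow). With the A libraries of all samples the difference was -3.53 (exact permutation p = 0.0317) and with the B libraries -1.43 (p = 0.00794), a split chosen after seeing the data in which S+P C7 sample 3 is among the A libraries and not among the B libraries.

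Every S+P C7 sample but the one at 0 carried Nt5e RNA above the floor. In S+P C4, the PD1- cells, Nt5e ran from 0 (sample 3, with few genes) through a median of 65.7 to 117 CPM. Without the few-gene samples the lowest S+P C4 sample had 51.8 CPM, and 3 of the 4 S+P C7 samples left were below it. Of the 3 Naive samples 1 was above every S+P C7 sample. Against Sensitized, S+P C7 was lower without overlap, as in 1 of 7 members and 1.37% of all genes, with a log2 fold change of -2.19 ± 1.05 (adjusted p = 0.480, edgeR). Without the samples with few genes this change was -1.86 (adjusted p = 0.185). In S+P mothers Nt5e was higher in C5 than in C4 in 6 of 6, with a log2 fold change of 0.92 ± 0.89 (adjusted p = 0.819), which became 0.42 (adjusted p = 0.820) without those samples.

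Izumo1r (chr9:14797110-14815245, minus strand) encodes FR4. It stood at 58.5, 20.4 and 15.3 CPM in Naive, at 43.1, 27.7 and 18.6 CPM in N+P C1, and at 160.4, 163 and 125 CPM in N+P C5. The N+P C5 samples lay above all samples of both other groups, and the groups Naive and N+P C1 overlapped. Without Naive sample 1 the Naive mean fell from 31.4 to 17.9 CPM. Against Naive the log2 fold change was 2.25 ± 1.39 (adjusted p = 0.807, edgeR), and 1.92 to 3.06 on leaving out 1 mouse. Against N+P C1, where only Nt5e and Izumo1r of the 7 members and 5.48% of all genes rank above without overlap, it was 2.32 ± 1.40 (adjusted p = 0.944). With these 2 groups fitted alone it was 2.33 and passed both thresholds of the study, which are 0.1 for the adjusted p and 0.9 for the size of the log2 fold change (adjusted p = 0.0724). In that fit 1 of 7 members and 51 of 13219 genes (0.386%) passed. With the mother added to it as a block the change was 2.40 (adjusted p = 0.0871), and 1 member and 29 genes (0.219%) passed.

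Sensitized samples had the lowest mean of Izumo1r of the 7 groups, with 8.01, 0, 0.0304 and 15.7 CPM, so that 2 of 4 were at the floor. They overlapped Naive, with a log2 fold change of -2.40 ± 1.27 (adjusted p = 0.627, edgeR). S+P C5 ran from 34.1 through a median of 118 to 194 CPM, and every sample was above every Sensitized sample, as for Izumo1r and Cd38 among the members and 1.45% of all genes. The log2 fold change was 4.38 ± 1.29 (p = 0.00190, adjusted p = 0.277, edgeR), and 3.96 to 5.53 on leaving out 1 mouse. It was 4.39 with an adjusted p of 0.0562 without the samples with few genes, and DESeq2 gave an adjusted p of 0.00136. S+P C5 against N+P C5 was -0.27 ± 1.14 (adjusted p = 1), and the means of 123 ± 58.4 CPM (n = 6) and 149 ± 21.3 (n = 3) differed by less than their spread.

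S+P C7 had 7.06, 17.7, 50, 131 and 22.5 CPM of Izumo1r, less than S+P C5 in 5 of 5 pairs, and the ranges of the groups overlapped. The log2 fold change was -1.43 ± 1.02 (adjusted p = 0.821, edgeR), and -1.23 (adjusted p = 0.719) without the few-gene samples. Leaving out 1 mouse gave -2.325 to -1.154. S+P C7 against Sensitized gave 2.94 ± 1.21 (p = 0.0211, adjusted p = 0.473), and 3.16 (adjusted p = 0.408) without the few-gene samples. When 1 mouse was left out it ranged from 2.06 to 4.11. In S+P C4, 5 samples lay between 5.16 and 32.5 CPM and sample 3, which has few genes, had 190.1 CPM. S+P C5 was above S+P C4 in 5 of 6 mothers, with a log2 fold change of 1.40 ± 0.96 (adjusted p = 0.636) that became 2.5 (adjusted p = 0.342) without the few-gene samples. The order of Izumo1r means was N+P C5, S+P C5, S+P C4, S+P C7, Naive, N+P C1 and Sensitized, and the steps from S+P C5 to S+P C4 and from N+P C1 to Sensitized were larger than the spread of both groups. The third place of S+P C4 rests on its sample 3. Without the few-gene samples its mean fell from 46.9 to 21.6 CPM, which placed it sixth, and the steps beyond the spread were then from S+P C5 to S+P C7 and from S+P C4 to Sensitized.

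Markers of CD4 and regulatory T cells were set beside Izumo1r, since FR4 is abundant on those cells. The 7 genes of that list summed to 49.8 to 84.3 CPM in Naive, 53.1 to 102 in N+P C1, 269 to 501 in N+P C5 and 64.6 to 148 in Sensitized, and to 225 to 670.0 CPM in S+P C5. The most abundant of the 7 in each of these samples but S+P C5 sample 6, where Ikzf2 led, was Ctla4, an inhibitory receptor that activated CD8 T cells also express, with means of 253 ± 83.5 CPM (N+P C5) and 327 ± 162 (S+P C5) against 44.1 ± 13.2 in Naive and 57.5 ± 30.5 in Sensitized. Within S+P mothers the sum was higher in C5 than in C7 in 5 of 5 pairs, like Izumo1r, and higher in C5 than in C4 in 6 of 6. S+P C4 sample 3, with the highest Izumo1r of its group, had 455 CPM of Ctla4 and none of Cd4. Ikzf2 (Helios, a factor of regulatory T cells) averaged 55.5 ± 23.0 (N+P C5) and 74.9 ± 39.3 CPM (S+P C5), against 14.1 ± 6.99 in Naive and 10.2 ± 7.72 in Sensitized. Cd40lg, the CD40 ligand of helper T cells, averaged 23.2 ± 22.2 (N+P C5) and 13.6 ± 7.55 CPM (S+P C5), against 4.5 ± 3.58 in Naive and 2.98 ± 3.89 in Sensitized. In S+P C4 the means were 6.82 CPM of Ikzf2 and 0.881 CPM of Cd40lg. Il2ra averaged 13.2 CPM in N+P C5, 1.46 in Naive and 0.0232 in N+P C1, but 7.61 in S+P C5 and 13.4 in Sensitized. Zbtb7b likewise averaged 4.41 CPM in N+P C5, 0.164 in Naive and 1.72 in N+P C1, but 1.33 in S+P C5 and 10.9 in Sensitized. Cd4 was 0 in every sample of N+P C5 or S+P C5, and Foxp3 was 0 in 2 of 3 N+P C5 and 5 of 6 S+P C5 samples, with 4.33 and 1.35 CPM in the others. Of the gamma delta T cell genes, Trgc2, a constant gene of the T cell receptor gamma chain, passed both thresholds in S+P C5 and S+P C7 against Sensitized, with means of 103 ± 66.2, 235 ± 289 and 0.0206 ± 0.0253 CPM, while Trdc of the delta chain was 0 in all S+P C5 samples. The cells were sorted as CD8 T cells, and CD4 antibodies are among those listed in the methods, which would remove CD4 T cells if gated out. The part of such cells in the Izumo1r levels was not tested.

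Entpd1 (chr19:40600810-40731585, plus strand) encodes CD39, which starts the breakdown of extracellular ATP. It was at 1, 0 and 1 count in the 3 Naive samples, all at the floor. The N+P C5 samples had 15.4, 25.2 and 28.7 CPM, above every Naive sample, as in 4 of the 7 members and 7.4% of all genes. The N+P C1 samples had 3.52, 1.5 and 15.9 CPM and overlapped N+P C5. Set against the floor of 3 counts in each Naive sample, N+P C5 was at least 206-fold higher. This change passed both thresholds (p = 3.26e-05, adjusted p = 0.0801, edgeR), as 1 of 7 members and 8 of 19657 genes (0.0407%) did. Leaving out a mouse of either group raised the adjusted p to between 0.106 and 0.777, so the call was lost without any 1 of the 6 mice. Over all 22 alternatives it was kept in 13 and lost in 9. Those that kept it include leaving out the few-gene samples, none of which is in these groups (adjusted p = 2.14e-04, edgeR, where 0.614% of all genes passed). DESeq2 also kept it (adjusted p = 3.83e-07, where 3.05% did).

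Sensitized samples had 44.2, 48.3, 40.9 and 0.805 CPM of Entpd1, above every Naive sample, as for Nt5e, Entpd1 and Cd38 among the members and 3.78% of all genes. The mean was at least 299-fold above the Naive floor, and it passed both thresholds (adjusted p = 0.0189, edgeR) as 1 of 7 members and 0.153% of all genes did. The call held without any 1 of the 4 Sensitized mice (adjusted p 0.00893 to 0.0362) and was lost without any 1 of the 3 Naive mice (0.212 to 0.261). Over all 23 alternatives it was kept in 18 and lost in 5. The adjusted p was 6.62e-05 without the few-gene samples (edgeR, where 0.782% of all genes passed) and 1.26e-08 with DESeq2 (3.31%). S+P C5, with 6.43 to 71.9 CPM (median 36.6), overlapped Sensitized, with a log2 fold change of 0.21 ± 1.05 (adjusted p = 1).

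The Entpd1 change from Naive to N+P C5 was compared with that from Sensitized to S+P C5 in the same fit. Both C5 groups were gated on PD1 and CD73, while the labels of Naive and Sensitized give no such gate. Pregnancy and gate therefore cannot be told apart in this comparison. The contrast of the 2 changes had p = 9.81e-05 and an adjusted p of 0.241. In it, 0 members and 5 of 19657 genes (0.0254%) passed both thresholds. Without the 3 samples with few genes its adjusted p was 0.00183, where 0.138% of genes passed, and DESeq2 gave 7.23e-05, where 2.48% did. The naive side of this contrast rests on samples at the floor, so its fitted size is not given.

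S+P C7 held the most Entpd1, with 109.2, 59.2, 87.5, 64.4 and 204 CPM, and all 5 samples lay above all 4 Sensitized samples, as in 1 of 7 members and 0.773% of all genes. The log2 fold change was 1.64 ± 1.13 (adjusted p = 0.830, edgeR), and 1.79 (adjusted p = 0.408) without the few-gene samples. In 5 of 5 pairs Entpd1 was higher in S+P C7 than in S+P C5, by 1.72 times in mothers 1 and 2 and by 9.21, 2.58, 2.39 and 5.18 times in mothers 3 to 6. This is the opposite direction to Nt5e and Izumo1r in the same pairs, and over the groups it was 1.43 ± 0.98 on the log2 scale (adjusted p = 0.784), and 1.56 (adjusted p = 0.285) without the few-gene samples. S+P C4 ran from 0.208 to 141 CPM with the samples with few genes at the bottom. S+P C5 was higher than S+P C4 in 2 of 6 mothers, with a log2 fold change of -0.67 ± 0.94 (adjusted p = 0.928) that the mother as a block turned to 0.30 (adjusted p = 0.999). Without the few-gene samples it was lower in 4 of 4 mothers (-1.26 ± 0.66, adjusted p = 0.422). The order of Entpd1 means was S+P C7, S+P C4, S+P C5, Sensitized, N+P C5, N+P C1 and Naive, where the step from N+P C5 to N+P C1 was larger than the spread of both groups. The order was the same without the few-gene samples, and the step from S+P C4 to S+P C5 also exceeded the spread.

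Entpd1 also differed between technical libraries. Most samples were made of libraries A and B of 200 cells each, and what distinguishes the letters is not given in the sources used here. Of 23 pairs, A held more Entpd1 in 20 and B in 2, while the median gene was higher in A in 11 and in B in 11, and 13 of 8263 genes with a mean of at least 10 CPM (0.157%) were higher in A at least as often. In N+P C5 the mean was 33.1 CPM in A and 12.5 in B libraries, in Sensitized 42.8 and 15.4 CPM, and in S+P C7 131 and 67.2 CPM. In S+P C5 the B mean was the higher, with 38.6 CPM in A and 42.0 in B libraries. With A libraries alone both calls against Naive were kept (adjusted p = 0.0582 for N+P C5 and 0.0228 for Sensitized, edgeR), and with B libraries alone neither was (0.422 and 0.221), a split added after seeing the data. In S+P C7 against S+P C5 the log2 fold change was 1.77 with A libraries and 0.68 with B libraries. The other members were not so divided, with Nt5e higher in A in 13 and in B in 10 pairs and Izumo1r in 10 and 12. The RNA was counted without a stated strand option, and exons of Gm41846 on the other strand overlap Entpd1. Exons on the other strand also overlap Cd38 (Gm16015) and Dpp4 (Gm13561 and Gm75479).

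**Figure D2:**
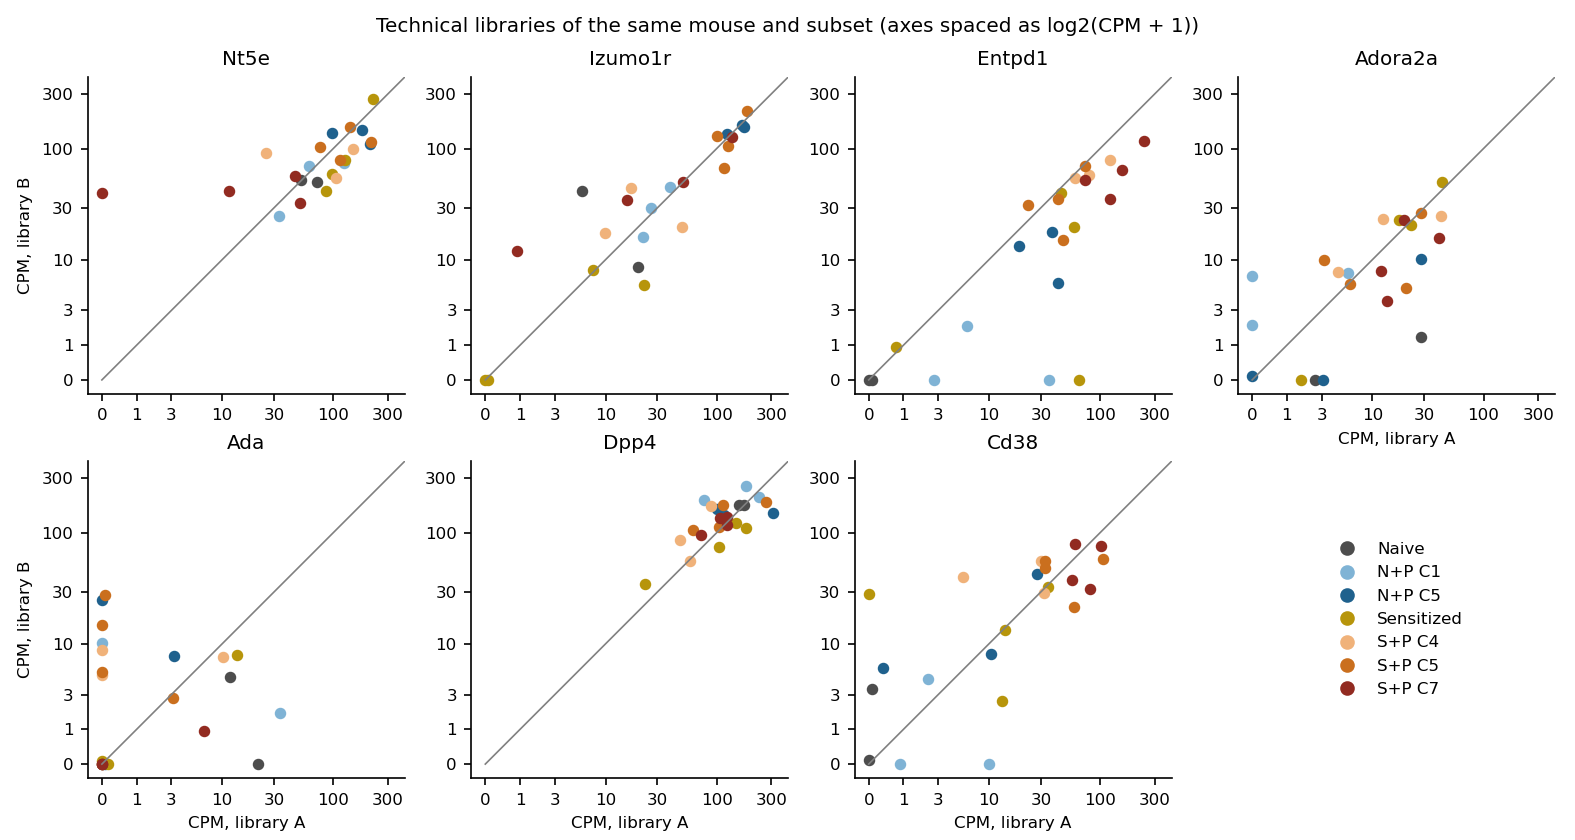
CPM of each of the 7 genes in library A (x axis) against library B (y axis) of the same mouse and subset, 23 pairs, both axes spaced as log2(CPM + 1), coloured by group, with the line of equality. Dpp4 lies close to the line, Ada falls on the axes in 8 pairs with 1 library at the floor, and 20 of the Entpd1 points lie below the line.

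Myeloid and NK cell markers were set beside Entpd1, since myeloid cells carry CD39. NK cell markers, some of which activated CD8 T cells express too, summed to 85.7 to 153 CPM in Sensitized, 3.20 to 17.8 in N+P C5 and 0.0378 to 16.0 CPM in Naive. In S+P mothers they summed to 76.5 to 681 CPM in C7 (median 130), 2.37 to 181 in C5 (median 51.4) and 1.89 to 559 in C4 (median 373), with Klre1 the most abundant gene in each sample. The 681 CPM was in S+P C7 sample 3, which has few genes and red cell and B cell RNA, and the next highest C7 sum was 532 CPM (mothers 1 and 2). The NK cell sum was higher in S+P C7 than in S+P C5 in 5 of 5 pairs, as was the myeloid sum, and higher in S+P C5 than in S+P C4 in 1 of 6 mothers for both. Entpd1 was higher in S+P C7 in the same 5 pairs. Ncr1 (NKp46) was 0 in all Naive, N+P C5 and S+P C5 samples and averaged 22.8 ± 44.8 CPM in S+P C7. There it was 0 in 2 of 5 samples and highest, at 103 CPM, in sample 3. Myeloid markers summed to 63.1 to 128 CPM in Naive samples, and in N+P C5 to 75.3 to 89.1 CPM. In S+P C7, the group with the most Entpd1, they summed to 144 to 6225 CPM (median 150), with the highest sum in sample 3, and in S+P C5 to 79.6 to 172 CPM (median 97.9). In Sensitized they summed to 110.3 to 485 CPM, with 4 to 5 of the 8 genes at the floor in each sample, Lyz2 as the most abundant gene in sample 1 (332 CPM) and Cst3 in the other samples, and Adgre1 (F4/80) and Cd14 at 0 in all 4. Itgax (CD11c), a myeloid and effector T cell integrin, was 0 in Naive and 50.5 ± 25.0 CPM in Sensitized and was the gene of this list past both thresholds there. It averaged 48.6 ± 20.3 CPM in S+P C7 and 11.9 ± 11.1 in S+P C5. Antibodies to NK1.1, CD49b, F4/80, CD11c and TER119 are among those the methods list for selecting, sorting and phenotyping cells, which would remove such cells if gated out. The part of other cells in the Entpd1 levels was not tested.

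Cd38 (chr5:44025875-44069717, plus strand) encodes a surface enzyme that consumes NAD. Naive samples had 0, 0.0331 and 1.36 CPM and N+P C5 samples 36.8, 9.29 and 2.61 CPM, without overlap. The log2 fold change was 5.12 ± 1.94 (p = 0.0129, adjusted p = 0.765, edgeR). It was 3.67 without N+P C5 sample 1, where the mean fell from 16.2 to 5.95 CPM. Without Naive sample 3, which leaves only Naive samples at the floor, the fitted value of 9.57 is no bound. Without the few-gene samples, none of which is in these groups, the SE fell to 1.18 and the adjusted p was 0.0403, past both thresholds, as for 0.614% of all genes. With DESeq2 the adjusted p was 0.0325, where 3.05% of genes passed. Sensitized samples, with 34.8, 7.35, 8.13 and 14 CPM, also lay above Naive (5.10 ± 1.91, adjusted p = 0.627; 9.55 without Naive sample 3). The adjusted p was 0.0363 without the few-gene samples, where 0.782% of genes passed, and 0.0150 with DESeq2, where 3.31% did.

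In S+P C5 Cd38 ran from 39.2 through a median of 54.2 to 152 CPM, above every Sensitized sample (log2 fold change 2.12 ± 1.39, adjusted p = 0.670) and every N+P C5 sample, as in 1 of 7 members and 0.967% of all genes (2.10 ± 1.56, adjusted p = 1; 3.55 without N+P C5 sample 1). Against the PD1- cells of the same mothers it was higher in 6 of 6, where S+P C4 ran from 0 to 42.0 CPM (1.91 ± 1.19, adjusted p = 0.560). Both samples at 0 had few genes, and without them S+P C4 ran from 17.6 CPM, Cd38 was higher in C5 in 4 of 4 mothers and the change was 1.32 (adjusted p = 0.509). The order of Cd38 means was S+P C5, S+P C7, S+P C4, N+P C5, Sensitized, N+P C1 and Naive, and the steps from S+P C7 to S+P C4, from Sensitized to N+P C1 and from N+P C1 to Naive were larger than the spread of both groups. S+P C7 had 48.4, 0.607, 91.4, 68.5 and 66.1 CPM, and without sample 3, at 0.607 CPM, the mean was 68.6 ± 17.7 CPM (n = 4), against 69.8 ± 43.1 in S+P C5 (n = 6). Cd38 did not separate the CD73 gates, with a log2 fold change of -0.34 ± 1.21 (adjusted p = 1; -0.052 without the few-gene samples) and 3 of 5 pairs higher in S+P C7.

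Adora2a (chr10:75152560-75170628, plus strand), the receptor through which adenosine raises cAMP in T cells, was low. Its group means lay between 3.77 ± 2.94 CPM in N+P C1 (n = 3) and 22.2 ± 18.0 in Sensitized (n = 4), and all groups overlapped. The former was 2.27 CPM without N+P C1 sample 1, and the latter 14.6 CPM without Sensitized sample 2. S+P C7 overlapped N+P C1 (0.871 to 6.75 CPM) only through its sample 3, which has few genes and was at 0. Without that sample S+P C7 ran from 10.3 to 28.4 CPM. This pair of groups is not among the 9 contrasts. The 4 Sensitized samples had 21.1, 45.0, 21.6 and 0.961 CPM and the S+P C5 samples 5.95 to 27.5 CPM. No contrast passed, and its log2 fold changes ran from -0.69 in N+P C5 against Naive to 1.22 in S+P C5 against N+P C5. Both ends rest on N+P C5 sample 1, at 16.9 CPM against 1.67 and 0.031 in the others. Without it the mean fell from 6.20 to 0.848 CPM, and the values became -3.55 and 4.08 (adjusted p = 0.999 and 1).

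Ada (chr2:163565705-163592159, minus strand), which removes adenosine, was at the floor in 28 of 53 libraries and 12 of 30 samples. All 3 Naive samples carried it, at 9.96, 12.8 and 8.99 CPM, while 3 of 4 Sensitized and 4 of 5 S+P C7 samples were at the floor. The Sensitized exception had 11 CPM, so the Naive and Sensitized ranges overlapped, and the log2 fold change was -1.93 ± 2.51 (adjusted p = 1.00, edgeR). Without that sample, Sensitized sample 1, all Sensitized samples are at the floor and the fitted value of -8.00 (adjusted p = 0.703) is no bound. An exon of Pkig on the other strand overlaps Ada.

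Dpp4 (chr2:62159798-62242576, minus strand) was present in every sample, and its libraries agreed best, with an SD of 0.416 between libraries A and B on the log2 scale. Group means lay between 91.4 ± 52.2 CPM in S+P C7 (n = 5) and 191 ± 37.4 in N+P C1 (n = 3). S+P C7 sample 3 had 2.57 CPM, and without it the S+P C7 mean was 114 ± 18.5 CPM (n = 4). No neighbours in the order of its group means differed beyond their spread, and its log2 fold changes ran from -0.53 to 0.50 with adjusted p of at least 0.870. Leaving out the few-gene samples raised the change in S+P C5 against S+P C4 from 0.50 to 0.91 ± 0.40 (adjusted p = 0.354) and made S+P C4 the lowest group mean, at 69.5 CPM.

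**Figure D3:**
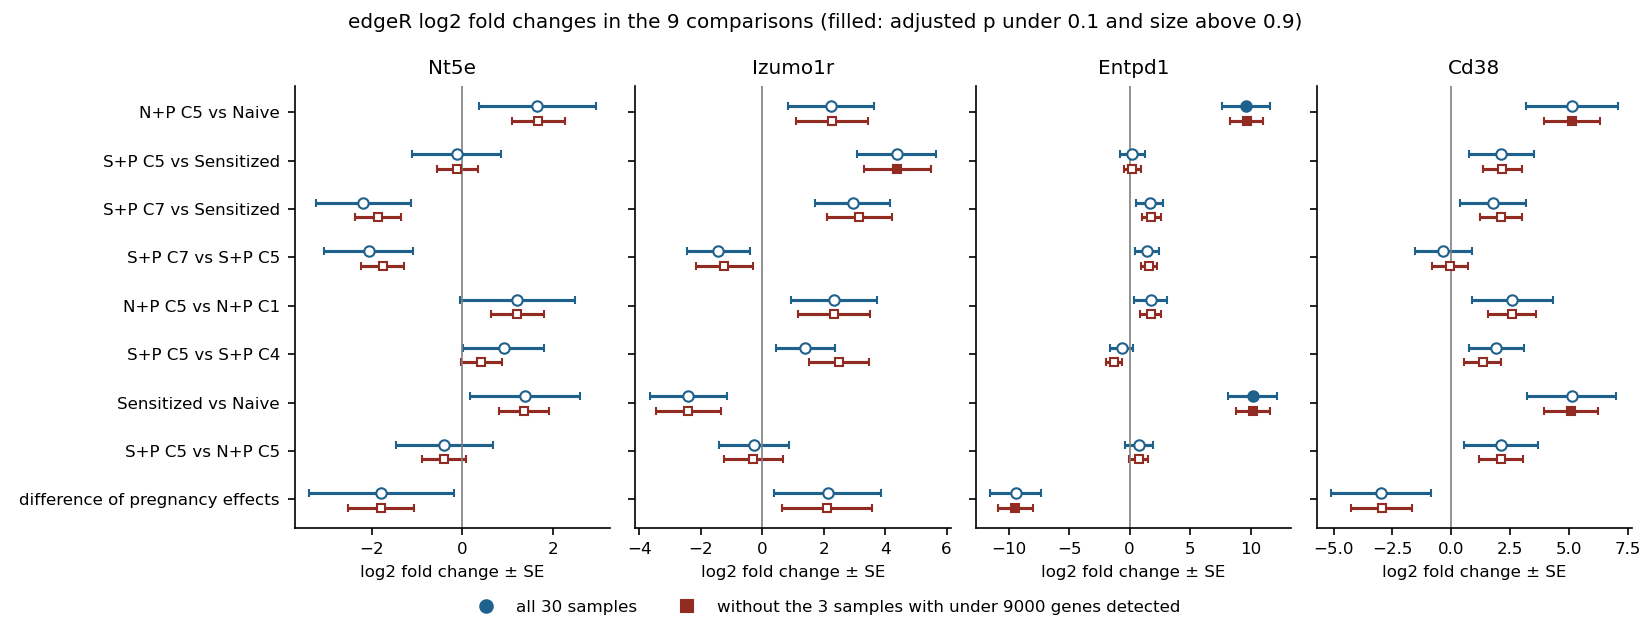
edgeR log2 fold changes ± SE of Nt5e, Izumo1r, Entpd1 and Cd38 in the 9 comparisons, with all 30 samples (circles) and without the 3 samples with under 9000 genes detected (squares); filled symbols pass both thresholds (0.1 for the adjusted p, 0.9 for the size of the change). With all samples the filled symbols are Entpd1 in both comparisons with Naive (N+P C5 and Sensitized), and the values against Naive for Entpd1 depend on a group at the floor.

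Over the 7 members and 9 contrasts, 2 of 63 tests passed both thresholds with edgeR, both for Entpd1. In S+P C5 against Sensitized 0 of 7 members passed beside 0.0712% of all genes, 1 member (Izumo1r) and 12.98% of all genes had an unadjusted p under 0.05, and Izumo1r passed with DESeq2 (3.18% of genes) and without the few-gene samples (1.02%). In S+P C7 against Sensitized 0 members and 0.0305% of genes passed, with 2 members (Nt5e and Izumo1r) and 10.2% of genes at an unadjusted p under 0.05. No member passed with DESeq2 on summed libraries, where 2.42% of genes did. Nt5e and Izumo1r both passed with DESeq2 on separate technical libraries, which counts libraries of 1 mouse as samples (adjusted p = 0.0807 and 0.00125), as did 2.45% of genes. In S+P C5 against S+P C4 the counts were 0 members and 0.0305% of genes. No member had an unadjusted p under 0.05, as 13.3% of all genes did, or passed with DESeq2, as 3.04% did. In N+P C5 against N+P C1 the counts were 0 members and 0.00509% of genes. Again no member had an unadjusted p under 0.05, as 4.31% of all genes did, or passed with DESeq2, as 2.49% did.

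In 2 comparisons no gene passed with edgeR. In S+P C7 against S+P C5, 0 of 19657 genes (0%) passed, 2500 had an unadjusted p under 0.05, Nt5e among them (p = 0.0440), and 623 passed with DESeq2, no member among them. In S+P C5 against N+P C5, 0 genes (0%) passed, 1155 had an unadjusted p under 0.05, none a member, and 744 passed with DESeq2, none a member. The median log2 fold change of the 7 members was 1.66 for N+P C5 against Naive, and for S+P C7 against S+P C5 it was -0.53, with 5 and 1 of 7 above 0, where the median over all genes was 0 and 0.02. These were the highest and the lowest median of the 9 contrasts, and both include Nt5e, on whose protein the C5 and C7 gates were set. For S+P C5 and S+P C7 against Sensitized the medians were 0.38 and -0.14. S+P C5 and S+P C7 against Sensitized share the Sensitized samples, and N+P C5 and Sensitized against Naive share the Naive samples.

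Lists of ectonucleotidases and NAD ectoenzymes, adenosine receptors, intracellular adenosine and AMP enzymes, nucleoside transporters, ATP release channels and P2 receptors, cAMP signalling genes, and folate receptors and transporters held 44 tested genes beside the members. With edgeR 0 of these 44 passed both thresholds in any of the 9 contrasts, where 0 to 0.153% of all genes did. An unadjusted p under 0.05 was found for 0 to 8 of them per contrast (0 to 18.2%), against 4.31 to 13.3% of all genes, and the 8 were in S+P C5 against Sensitized, where 12.98% of all genes had one. With DESeq2 0 to 3 passed per contrast (0 to 6.82%), against 1.87 to 3.31% of all genes, and these were P2ry1, P2ry12, Adk, Bst1 and Pde4b, a selection made from their values. The other adenosine receptors were too low to test, with means of at most 0.755 CPM for Adora2b and 0.888 CPM for Adora3, both in S+P C7. Slc29a1 (ENT1), a carrier that moves adenosine across the membrane, averaged 77.9 ± 33.9 CPM (N+P C5) and 72.7 ± 25.6 (S+P C5) against 16.5 ± 5.37 in N+P C1 and 26.2 ± 27.1 in S+P C4. It averaged 59.1 ± 32.1 CPM in Naive, 23.5 ± 15.0 in Sensitized and 49.6 ± 30.2 in S+P C7. Slc19a1, the reduced folate carrier, averaged 6.27 ± 5.26 CPM (N+P C5) and 3.47 ± 2.74 (S+P C5), against 27.6 ± 23.7 in Naive and 22.8 ± 13.3 in Sensitized. Its means were 18.7 ± 12.7 CPM in N+P C1, 10.6 ± 12.4 in S+P C4 and 8.61 ± 5.31 in S+P C7. Neither gene passed both thresholds in any contrast with edgeR. Adcy7 (an adenylyl cyclase) and Prkar1a (a regulatory subunit of the cAMP-dependent kinase), downstream of the A2A receptor, averaged 180 to 266 and 330 to 427 CPM in the 7 groups.

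Levels can be compared between genes only per length of exon. On this scale Izumo1r had the highest mean and median of the members in N+P C5 (mean 53.7 CPM per kilobase), and Dpp4 (18.8) and Nt5e (16.8) were next. It also had both in S+P C5 (mean 44.4), where Cd38, Dpp4 and Nt5e had means of 15.7, 15.0 and 12.8 CPM per kilobase. In S+P C7 the mean of Izumo1r was 16.5 CPM per kilobase, but its median was 8.11 and its mean without sample 5 was 8.75, while the medians of Cd38, Dpp4 and Entpd1 were 14.8, 13.2 and 12.3 (means 12.4, 10.4 and 14.7, the last 11.2 without sample 6). Nt5e had a mean of 3.06. In Sensitized cells Nt5e had a mean of 13.9 CPM per kilobase (9.59 without sample 2), Dpp4 one of 11.5 and Izumo1r one of 2.13 (0.965 without sample 4).

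Nt5e and Izumo1r shared little of their variation across the 30 samples. Their Spearman correlation was 0.18 (0.26 without the few-gene samples), as a description over samples that share groups and mothers. The 5 genes whose log2(CPM + 1) ran closest to Nt5e, among 8262 genes with a mean of at least 10 CPM, were Strbp (0.697), Kdm2b (0.692), Setdb1 (0.692), Tnfrsf4 (0.691) and Nol10 (0.664). Tnfrsf4 encodes OX40, a costimulatory receptor of activated T cells. Closest to Izumo1r were Prelid2 (0.813), Nrip1 (0.768), Ctla4 (0.741), Gstp3 (0.735) and Atrx (0.721), of which Ctla4 encodes an inhibitory receptor. Among the members the highest correlation was that of Entpd1 with Cd38 (0.635) and the lowest that of Entpd1 with Dpp4 (-0.542). The lowest without the few-gene samples was that of Adora2a with Dpp4 (-0.689), and Entpd1 with Dpp4 was at -0.628.

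Agreement of technical libraries differed between the members. The SD between libraries A and B on the log2(CPM + 1) scale was 0.962 for Nt5e, 0.749 for Izumo1r, 1.39 for Entpd1, 1.02 for Adora2a, 1.74 for Ada and 1.19 for Cd38. For Ada it exceeded the SD between mice of a group (1.5), and for the other members it was below it (1.68 for Nt5e, 1.38 for Izumo1r, 1.86 for Entpd1, 1.71 for Adora2a, 1.19 for Dpp4 and 1.74 for Cd38). Of the 23 pairs, 1 had Nt5e, 3 had Entpd1, 4 had Cd38, 5 had Adora2a and 8 had Ada at the floor in 1 library and not in the other.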

How the data were processed

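TFGS RNA was amplified with SmartSeq2 from 200 sorted cells per library, and all libraries shared a sequencing run. Raw gene counts were deposited by the authors, who trimmed reads with Cutadapt 3.4, aligned them to GRCm39 with STAR 2.6.1b, dropped multi-mapping reads and counted genes with featureCounts 2.0.1, per the labels and the study's methods. The strand option and the annotation release are not given in the sources used here. Of the 55359 genes, 54749 matched GENCODE M39 annotation. Promoter sequences are those of RefSeq.

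Of 56 libraries 53 were used, and the technical libraries of each sorted sample were added up, which left 30 samples, 7 of them from a single library. In 4 columns the technical letter differs from that of the sample label, and the label was used. The identical library in Naive and S+P C4 was left out of both groups, and the near-identical libraries of S+P C7 replicates 1 and 2 (Pearson's r 0.9986 over genes, against at most 0.9527 in other pairs) were averaged.

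All 7 groups were fitted at once with edgeR 4.0.16 (two-sided robust quasi-likelihood test, TMM, filterByExpr at 10 counts), with Benjamini-Hochberg adjustment over 19657 genes. A gene passed both thresholds when its adjusted p was below 0.1 and its log2 fold change larger than 0.9 in size, as in the study, which used DESeq2. CPM are on TMM-scaled library sizes. For the CD73 gate, Nt5e in S+P C7 was set against S+P C5 on log2(CPM + 1) with an exact permutation test. The labels number replicates without saying that each is a separate mouse, and p-values measure the spread between these samples, which may be technical. The paper describes suspensions from individual mice, sorted in independent experiments with technical replicates of each biological sample. The labels do not tie samples to those experiments, and the largest groups here hold more samples than the paper's figure legend gives.

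The members, lists and alternatives were chosen with earlier results of these data known. The genes named include the members, sort checks, and list genes past both thresholds or among the 3 most abundant of their list. They also include the 5 genes closest to Nt5e and to Izumo1r by Spearman correlation. Further genes of the lists, such as Zbtb7b, Adgre1 and Cd14, are named without such a rule. Subsets with the same number in N+P or in S+P mice were taken as 1 mother, and their deviations from the group means correlated with a mean r of 0.0749 (N+P C5 with C1), 0.139 (S+P C5 with C4) and 0.157 (S+P C7 with C5), over genes. Alternatives were DESeq2 1.42.0 on summed or separate libraries, other normalizations and filters, the replicate block, the groups compared alone, leaving out each mouse or the 3 samples with few genes and, chosen after seeing the data, only A or only B libraries. The steps were tested on simulated counts. The scripts ran on R 4.3.3 (limma 3.58.1) and Python 3.11.15 (scipy 1.17.1, pandas 2.3.3, matplotlib 3.10.9).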

Additional observations from a re-analysis of the deposited data

Results flagged for a closer look

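In 28 groups of 4 to 6 samples with a value for a member, Dixon's criterion on CPM set 6 samples apart. Its rate by chance of about 1 in 20 groups assumes normally distributed values. These CPM are skewed and some are at the floor, so the count cannot be read against that rate. S+P C4 sample 3 had 190.1 CPM of Izumo1r, against 32.5 CPM in the next sample, and it is a sample with under 9000 genes detected. Sensitized sample 4 had 0.805 CPM of Entpd1, against 40.9 CPM in the next sample. Ada was set apart by being above the floor, with 11 CPM in Sensitized sample 1 and 4.36 CPM in S+P C7 sample 4. S+P C5 sample 1 had 17.7 CPM of Ada, against 5.99 CPM in the next sample. S+P C5 sample 3 had 152 CPM of Cd38, against 77.4 CPM in the next sample.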

How the results depend on the processing

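Over 63 log2 fold changes of the members and 1599 alternative values, 1504 kept direction and side of both thresholds, 14 lost and 18 gained the call, and 63 changed sign, none of these past both thresholds. The number of members past both thresholds was 2 in place of 1 for N+P C5 and for Sensitized against Naive, with DESeq2 on summed libraries (3.05% and 3.31% of all genes passed) or separate ones (2.71% and 2.76%) and without the few-gene samples (0.614% and 0.782%). In both it was 0 with the replicate block or only B libraries, and in N+P C5 against Naive also 0 at an adjusted p under 0.05. Leaving out a mouse gave 0 to 0 there and 0 to 1 for Sensitized against Naive. S+P C5 against Sensitized rose from 0 to 1 with DESeq2 on summed (3.18%) or separate libraries (2.62%) and without the few-gene samples (1.02%). The difference of C5 changes is S+P C5 against Sensitized minus N+P C5 against Naive, and it includes the gates. It rose from 0 to 1 in these alternatives (2.48%, 2.27% and 0.138%). The same rise was seen with a mean of at least 10 CPM (0.108%) and with only the groups compared (0.184%). S+P C7 against Sensitized rose to 2 with DESeq2 on separate libraries (2.45% of all genes passed), and N+P C5 against N+P C1 to 1 with only the groups compared (0.386%) or the replicate block (0.219%). The block was fitted on the groups compared alone, and for mice that are not the same animals it ties numbers only. Nt5e by the CD73 gate was -2.59 (p = 0.0625, exact sign flips) with the replicate block.

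The cause of the changes of sign was not tested. With only A libraries, Adora2a became -0.078 in the difference of C5 changes. With the same libraries, values became -0.15 (Entpd1) and -2.14 (Ada) in S+P C5 against Sensitized. For S+P C7 against S+P C5 they became 0.33 (Adora2a) and 0.75 (Ada). They became 0.11 (Dpp4) in N+P C5 against N+P C1 and -2.10 (Ada) in S+P C5 against S+P C4. With only B libraries, they became 1.14 (Ada) in N+P C5 against Naive, 0.079 (Nt5e) in S+P C5 against Sensitized, 0.51 (Dpp4) in S+P C7 against Sensitized, 0.16 (Cd38) in S+P C7 against S+P C5, -0.67 (Adora2a) and 1.43 (Ada) in N+P C5 against N+P C1, and -0.46 (Adora2a) in the difference. The replicate block gave 0.18 (Adora2a) in S+P C5 against Sensitized, -0.40 (Adora2a) in N+P C5 against N+P C1 and 0.30 (Entpd1, -0.67 as reported) in S+P C5 against S+P C4. DESeq2 on separate libraries gave 0.036 (Dpp4) in S+P C7 against Sensitized, 0.15 (Adora2a) in S+P C7 against S+P C5 and -0.41 (Adora2a) in the difference. Without the few-gene samples Dpp4 was 0.17 and Adora2a 0.27 in the former 2. Keeping all 56 columns gave 0.33 and -0.17 (Adora2a) in the latter 2 and -0.0034 (Ada) in S+P C5 against S+P C4, and the identical library kept in 1 group gave -0.16 (Adora2a) and -0.0035 (Ada).

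Leaving out a mouse, the sign changed at the following ends of the ranges. Ada ran from -1.72 to 0.72 (N+P C5 against N+P C1), -1.12 to 0.91 (S+P C5 against N+P C5), -0.13 to 1.83 (S+P C5 against S+P C4), -0.21 to 6.90 (S+P C5 against Sensitized) and -9.50 to 4.44 (S+P C7 against Sensitized). The fitted values of 6.90, -9.50 and 4.44 come from fits with a whole group at the floor and are no bounds. Adora2a ran from -2.14 to 1.45 (N+P C5 against N+P C1), -0.46 to 0.29 (S+P C7 against S+P C5) and -0.59 to 2.94 (difference). Dpp4 ran from -0.13 to 0.40 (N+P C5 against Naive), -0.57 to 0.029 (S+P C5 against N+P C5), -0.46 to 0.16 (S+P C7 against Sensitized) and -0.15 to 0.51 (difference). Cd38 ran from -0.60 to 0.062 (S+P C7 against S+P C5), and in S+P C5 against Sensitized Entpd1 ran from -0.18 to 0.44 and Nt5e from -0.31 to 0.42.

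The count of all genes past both thresholds ran, over the alternatives, from 2 to 1015 in N+P C5 against Naive (8 as reported), 4 to 1059 in S+P C5 against Sensitized (14) 2 to 1102 in Sensitized against Naive (30), 0 to 903 in S+P C7 against Sensitized (6) and 0 to 827 in N+P C5 against N+P C1 (1), with DESeq2 highest. The 49 group means of the members, each under 2 alternatives (98 values), moved by less than 1 SD. Without the few-gene samples, 1 of the 14 means that hold such a sample still moved by over 1.5 times. It was Izumo1r in S+P C4 (46.9 to 21.6 CPM, where the SD was 70.9).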
